A study of Homo sapiens with 6 samples.

Results

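The genes of the epidermal growth factor (EGF) receptor family described here are the receptors EGFR, ERBB2 and ERBB3, the ligands HBEGF, TGFA, AREG and EREG, and the feedback inhibitor ERRFI1. They were selected by gene name, and all 8 were found among the 23619 genes of the deposited table. Expression had been measured by RNA-seq in T24 cells, an established line from a human bladder cancer, labelled wild type in every sample and grown in medium with fetal bovine serum. The treated cells were given 3.84 µM Caba-780, which the study calls a near-infrared fluorescence imaging drug, for 24 h (3 libraries), and the control cells are labelled as having had no treatment (3 libraries). The labels name no vehicle. Whether each replicate was its own culture is also not stated, and p-values therefore rest on a spread among libraries that may be technical. The series asks how expression differs between treated and control cells.

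EGF family ligands are made as membrane-bound precursors, which the sheddases ADAM17 and ADAM10 cut to release the soluble growth factor. A ligand bound to EGFR, ERBB3 or ERBB4 lets receptors pair and phosphorylate each other, while ERBB2 has no known ligand and serves as a partner, and ERBB3 has little kinase activity of its own. The signal passes through adaptors such as GRB2 and SHC1 to the RAS and PI3K pathways, which raise transcription of several ligands and of ERRFI1, a cytoplasmic protein that binds the EGFR kinase domain and blocks it. In the normal urothelium EGFR and its ligands take part in growth and wound repair.

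Reads in genes numbered 14649171 to 15983035 per library with Caba-780 and 14591234 to 15785965 in controls. Control replicate 3 stood apart: 19503 to 20308 genes were detected in the Caba-780 libraries, and in controls 19845, 19467 and, in replicate 3, 13627. Log2 changes are therefore given with all 6 libraries and again without control replicate 3. As to the label, the epithelial keratins KRT7, KRT8 and KRT18 were present (572 to 7675 normalized counts), whereas CDH1 and EPCAM had at most 2.69 and 38.3 normalized counts, the second in control replicate 3 only. Of the urothelial genes, PPARG and UPK1B had 64.3 to 224 normalized counts, and UPK1A, UPK2 and GATA3 at most 14.7. The endothelial markers PECAM1 and CDH5 summed to 3.93 to 8.49 normalized counts in the Caba-780 libraries and 0 to 7.20 in controls. KRT19, UPK3A, VWF and the 4 leukocyte markers chosen were not analysed here.

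The start regions of the ligand genes are shown first, because the ligands differed most in level and in response. RefSeq (GRCh38.p14) gave the 250 bases before the start of 7 of the 8 genes, all but ERBB3, and the printed stretches end before the first base of the GENCODE gene. Capitals mark matches, on either strand, to GGGCGG (the core bound by SP1), TGACGTCA (the cyclic AMP response element, CRE) or GGAATG (the core bound by TEAD factors). The HBEGF stretch lies on the minus strand at chr5:140346632-140346853, that of AREG on the plus strand at chr4:74444886-74445133 and that of EREG on the plus strand at chr4:74364895-74365142.
HBEGF: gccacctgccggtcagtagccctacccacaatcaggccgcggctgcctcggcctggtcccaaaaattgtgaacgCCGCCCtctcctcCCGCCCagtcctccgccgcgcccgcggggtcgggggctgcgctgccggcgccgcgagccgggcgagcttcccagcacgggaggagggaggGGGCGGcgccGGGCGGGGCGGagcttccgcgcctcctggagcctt
AREG: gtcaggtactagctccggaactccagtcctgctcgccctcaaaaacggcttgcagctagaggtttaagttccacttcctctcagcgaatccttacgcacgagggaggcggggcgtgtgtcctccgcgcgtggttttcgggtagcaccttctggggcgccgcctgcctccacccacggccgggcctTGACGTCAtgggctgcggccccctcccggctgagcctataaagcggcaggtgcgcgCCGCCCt
EREG: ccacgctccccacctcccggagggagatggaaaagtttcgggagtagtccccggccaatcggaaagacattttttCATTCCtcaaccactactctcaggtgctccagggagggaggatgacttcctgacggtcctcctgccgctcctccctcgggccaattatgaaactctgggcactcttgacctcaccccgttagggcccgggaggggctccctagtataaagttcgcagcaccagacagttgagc
The window of HBEGF held 5 GGGCGG matches, of which the pair nearest the start overlap, and none of the other motifs searched. AREG held a CRE from base −65 to −58 before the RefSeq start and 1 GGGCGG, and EREG held 1 GGAATG. Of 35116 RefSeq promoter windows of the same length, 42.6% held GGGCGG, 1.65% TGACGTCA and 11.9% GGAATG. TGFA, whose window lies inside the longer GENCODE gene and is not printed, held 3 GGGCGG and 1 NF-kB match (a motif held by 5.21% of windows). EGFR held 2 GGGCGG and ERRFI1 held 1. ERBB2 held 1 AP-1 match (TGANTCA, 6.57% of windows). No match was found in these 7 windows for EGR (GCGNGGGCG, 8.41%), the E-box (CACGTG, 6.34%) or the CArG box (1.16%). These matches describe letters in the windows and are not measured binding.

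HBEGF was the member that changed most with Caba-780. It encodes heparin-binding EGF-like growth factor, which activates EGFR and ERBB4 (ENSG00000113070, chromosome 5, 140332843 to 140346631, GRCh38). Levels are given as normalized counts (reads of a gene over the size factor of its library, as deposited). HBEGF had 3175, 3793 and 3459.7 normalized counts in Caba-780 replicates 1 to 3, against 539, 475 and 233 in control replicates 1 to 3. Every treated library was above every control, and control replicate 3 was the lowest. The mean was 3476 ± 309 with Caba-780 and 416 ± 161 in controls (SD, n = 3 each), a ratio of 8.36, or 6.85 without control replicate 3. The log2 change, on the log2(value + 1) scale, was 3.14 ± 0.33 (SE of limma), with an adjusted p of 0.0246 in the limma fit over 13847 genes. In the fit without control replicate 3 the log2 change of HBEGF was 2.77 ± 0.14 (limma adjusted p = 1.04e-14). The authors' deposited table gave HBEGF a log2 fold change of 3.06 and an adjusted p of 2.36e-14. For the other members the authors' deposited table gave adjusted p-values of 0.514 to 0.915.

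HBEGF was the 1 member called of the 7 tested with 6 libraries, where 1.00% of all genes tested were called (0.744% higher and 0.260% lower). The eighth member, EREG, was under the limit of 10 normalized counts in at least 3 libraries and was not tested. Leaving out any library other than control replicate 3 ended the HBEGF call in the fit with 6 libraries, at an adjusted p of 0.0947 without control replicate 1, 0.105 without control replicate 2 and 0.216 to 0.236 without 1 of the Caba-780 libraries, with a log2 change of 3.08 to 3.38. With control replicate 3 left out as well, each of these fits called HBEGF, at a log2 change of 2.68 to 2.86.

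**Figure D1:**
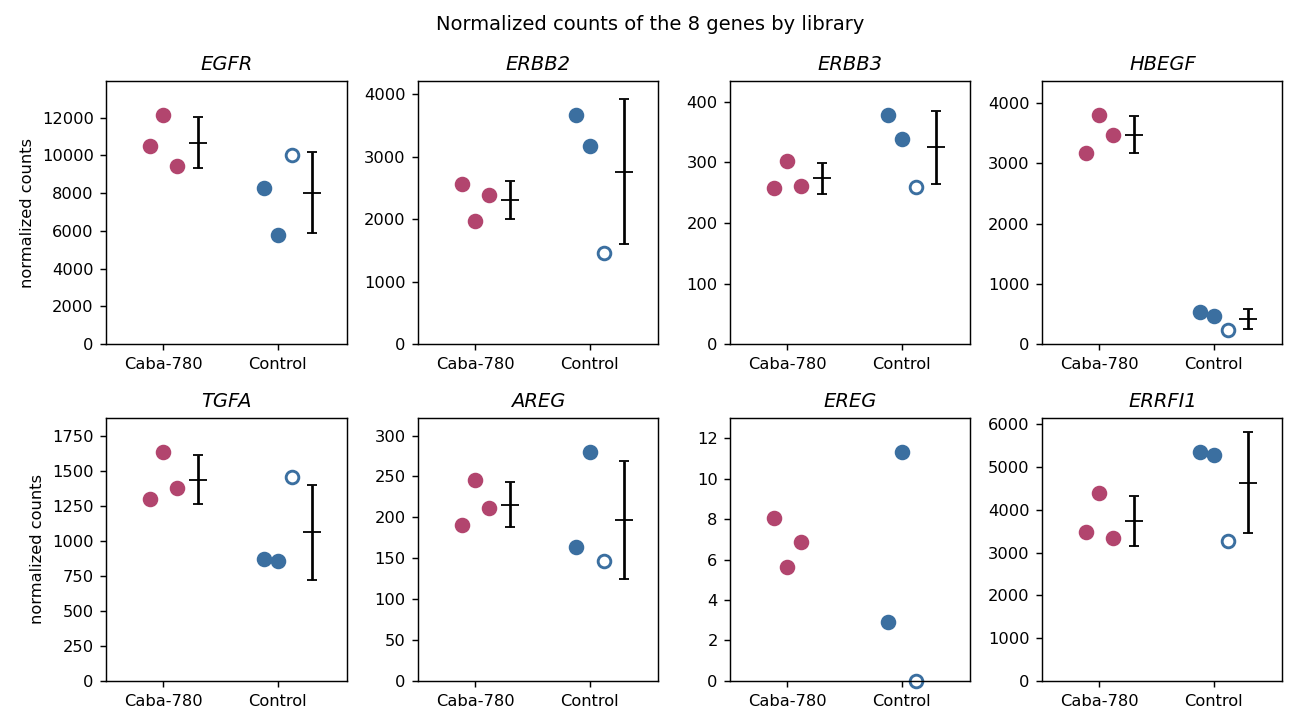
Normalized counts of each of the 8 genes (linear axes from 0) in the Caba-780 and Control libraries; points are libraries, the open point is control replicate 3, and the bars show mean and SD (n = 3; left out for EREG). HBEGF is at 3175 to 3793 in the treated libraries and at 233 to 539 in controls, and for EGFR, ERBB2, ERBB3, TGFA and ERRFI1 the open point lies nearer the treated libraries than the filled controls.

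TGFA encodes transforming growth factor alpha, a ligand of EGFR (ENSG00000163235, chromosome 2, 70447280 to 70554193). It had 1302, 1636 and 1380.4 normalized counts in Caba-780 replicates 1 to 3, against 871, 857 and 1455 in control replicates 1 to 3. The third control was above 2 of the 3 treated libraries, and the other controls were below all of them. With 6 libraries the log2 change of TGFA was 0.48 ± 0.26 and did not pass (limma adjusted p = 0.397, 95% interval −0.14 to 1.10). It rose in the fit without control replicate 3, by 0.73 ± 0.14 (limma adjusted p = 3.43e-04), a ratio of means of 1.67.

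AREG, amphiregulin, another EGFR ligand and a known target of cyclic AMP signalling, lies beside EREG on chromosome 4 (ENSG00000109321, 74445134 to 74455009). It had 191, 245 and 211 normalized counts in the Caba-780 libraries, against 164, 279.9 and 147 in the controls, so the controls spread around the treated values. The log2 change of AREG was 0.18 ± 0.30 with 6 libraries (limma adjusted p = 0.766) and 0.00 ± 0.21 without control replicate 3 (limma adjusted p = 0.995), and the 95% interval of the second ran from −0.42 to 0.43. Its sign without control replicate 3 turned with edgeR, with DESeq2 and when some libraries were left out. EREG, epiregulin (ENSG00000124882, 74365143 to 74388751), was close to the detection limit, with 9, 6 and 7 reads in the Caba-780 libraries and 3, 11 and 0 reads in the controls. A floor of 3 reads corresponds to 2.69 to 3.38 normalized counts in these libraries, and covers counting error only. EPGN, a further EGF-type ligand gene of the same stretch of chromosome 4 (74308473 to 74315307), had 3 reads in Caba-780 replicate 1 and 0 in the other 5 libraries. BTC, betacellulin (74744759 to 74794686), had 51.1, 19.8 and 46.1 normalized counts with Caba-780, against 32.0, 44.2 and 0 in controls.

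Divided by the deposited gene length, HBEGF stood highest among these ligands in every treated library. Which transcripts of each gene were expressed was not measured, so levels and shares compared between genes depend on that length. Per kb of gene length, HBEGF had 1152 ± 103 normalized counts with Caba-780 and 138 ± 53.5 in controls, and TGFA had 290 ± 35.2 with Caba-780 and 214 ± 68.7 in controls (SD, n = 3 each). AREG had 131 ± 16.6 per kb with Caba-780 and 119 ± 44.0 in controls. The sum over HBEGF, TGFA, AREG, EREG, BTC, EGF and EPGN was 1452, 1743 and 1570.2 per kb in Caba-780 replicates 1 to 3, against 466, 518 and 459 in the controls. The sums did not overlap, and their means differed 3.30-fold (two-sided exact permutation p = 0.1, the smallest that 3 against 3 libraries allow), or 3.23-fold without control replicate 3. HBEGF made up 72.5% ± 0.458 of that sum with Caba-780 and 28.5% ± 10.9 in controls, while TGFA made up 18.2% ± 0.613 with Caba-780 and 44.9% ± 16.5 in controls (SD, n = 3 each; two-sided exact permutation p = 0.1 for each). Without control replicate 3 the difference in share was 38.1 percentage points for HBEGF and −17.3 for TGFA (exact permutation p = 0.1 for each, again the smallest possible). The TGFA share in control replicate 3 was 63.8%, against 33.3% and 37.7% in the other controls. A lower share of TGFA with Caba-780 thus stood beside a TGFA level that was not lower.

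**Figure D2:**
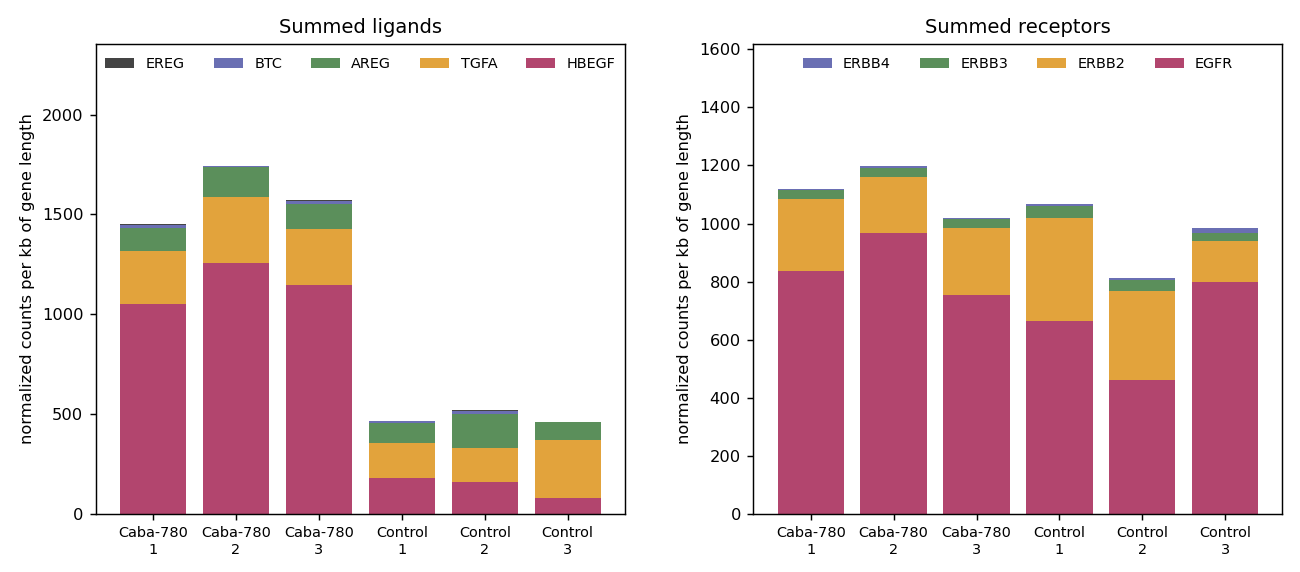
Normalized counts per kb of gene length in each library, stacked by gene, for ligands (left) and receptors (right), with EGF and EPGN, at 0 to 4 reads, not drawn. The ligand sum is 1452 to 1743 in the Caba-780 libraries and 459 to 518 in controls, and the receptor sums overlap.

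Among the receptors, EGFR (ENSG00000146648, chromosome 7, 55019021 to 55211628) had 10489, 12121 and 9429 normalized counts in Caba-780 replicates 1 to 3, against 8297, 5762 and 10007 in control replicates 1 to 3. Control replicate 3 lay within the treated range, and the other controls lay below it. EGFR averaged 10679 ± 1356 with Caba-780 and 8022 ± 2136 in controls (SD, n = 3 each), and its log2 change of 0.44 ± 0.24 did not pass with 6 libraries (limma adjusted p = 0.402). EGFR rose in the fit without control replicate 3, by 0.62 ± 0.15 (limma adjusted p = 0.00287). That call was lost when control replicate 2, the lowest, was left out too (0.36, limma adjusted p = 0.152). The antisense gene EGFR-AS1 overlaps EGFR, at 6.27 to 16.7 normalized counts with Caba-780 and 0 to 0.970 in controls; whether reads were assigned by strand is not given in the sources used here.

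ERBB2 (ENSG00000141736, chromosome 17, 39687914 to 39730426), the partner receptor without a ligand, had 2562, 1969 and 2395 normalized counts with Caba-780, against 3661, 3167 and 1453 in controls. The third control was the lowest of the 6 libraries and the other controls were the highest. Its log2 change was −0.16 ± 0.37 with 6 libraries (limma adjusted p = 0.832), and turned to 0.10 when control replicate 1 was left out. In the fit without control replicate 3 ERBB2 fell by 0.57 ± 0.14, with an SE on the log2 scale (limma adjusted p = 0.00299). The call was lost when control replicate 1 was also left out (−0.46, limma adjusted p = 0.0655). PGAP3 and MIEN1, on the opposite strand, overlap the ends of ERBB2 and had 322 to 449 and 203 to 297 normalized counts with Caba-780, against 215 to 544 and 217 to 526 in controls.

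ERBB3 (ENSG00000065361, chromosome 12, 56076799 to 56103505), the neuregulin receptor with a weak kinase, had 257, 303 and 261 normalized counts with Caba-780, against 377, 338 and 259 in controls. It missed the threshold both with 6 libraries (−0.23 ± 0.22, limma adjusted p = 0.607) and without control replicate 3 (−0.39 ± 0.17, limma adjusted p = 0.0796, 95% interval −0.73 to −0.04). Without control replicate 3 and Caba-780 replicate 2, ERBB3 passed (−0.46, limma adjusted p = 0.0281). ERBB4, the fourth receptor, had 69.9, 86.7 and 53.0 normalized counts with Caba-780, against 96.0, 86.4 and 219.9 in controls, and was not called with 6 libraries (−0.83 ± 0.43, limma adjusted p = 0.379) or without control replicate 3 (−0.41 ± 0.26, limma adjusted p = 0.246).

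Per kb of gene length EGFR had 853 ± 108 normalized counts with Caba-780 and 641 ± 171 in controls, ERBB2 had 224 ± 29.6 with Caba-780 and 267 ± 112 in controls, and ERBB3 had 30.3 ± 2.79 with Caba-780 and 36.0 ± 6.65 in controls (SD, n = 3 each). By the deposited gene length EGFR stood above ERBB2, and ERBB2 above ERBB3 and ERBB4, in all 6 libraries. The lengths of the transcripts expressed were not measured, so this order and the receptor shares depend on the deposited length. EGFR made up 74.8%, 80.7% and 74.0% of the summed receptor level in Caba-780 replicates 1 to 3, against 62.1%, 56.7% and 81.1% in controls. The share of EGFR in control replicate 3 was the highest of all, and the difference of the means, 9.85 percentage points, was within the spread (two-sided exact permutation p = 0.4). Without control replicate 3 the difference was 17.1 percentage points (exact permutation p = 0.1, the smallest that 3 against 2 libraries allow). The receptor sum itself overlapped between groups, at 1112 ± 90.7 per kb with Caba-780 and 954 ± 130 in controls (SD, n = 3 each; two-sided exact permutation p = 0.2).

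ERRFI1, the feedback inhibitor also called MIG6 (ENSG00000116285, chromosome 1, 8004404 to 8026308), had 3477, 4393 and 3329 normalized counts in Caba-780 replicates 1 to 3, against 5347, 5269.8 and 3275 in control replicates 1 to 3. The third control was again the lowest value and the other controls the highest. The log2 change was −0.29 ± 0.25 with 6 libraries (limma adjusted p = 0.577). ERRFI1 fell in the fit without control replicate 3, by 0.52 ± 0.14 on the log2 scale (limma adjusted p = 0.00567), a ratio of means of 0.703. Per kb of gene length its mean was 892 ± 138 with Caba-780, second to HBEGF, and 1106 ± 281 in controls, the highest of the 8 genes (SD, n = 3 each). EGFR was slightly above ERRFI1 per kb in 1 library of each group, Caba-780 replicate 1 (838 against 831) and control replicate 3 (799 against 782). These gaps are small, and the order of genes per kb depends on the deposited gene lengths. An antisense gene that overlaps ERRFI1, AL034417.4, had 20.6 to 26.4 normalized counts with Caba-780 and 0 to 9.70 in controls.

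Taking the members together, 5 of the 7 tested were called without control replicate 3, where 32.4% of all 13708 genes tested were called. HBEGF, TGFA and EGFR were higher (17.2% of all genes) and ERBB2 and ERRFI1 lower (15.2%). With 6 libraries the groups did not overlap for 1 of the 8 genes, HBEGF, beside 31.3% of all tested genes (17.9% higher and 13.4% lower with Caba-780). With control replicate 3 left out they did not overlap for 6 of the 8 (HBEGF, TGFA and EGFR higher, ERBB2, ERBB3 and ERRFI1 lower), beside 56.5% of all tested genes (28.0% higher and 28.4% lower). The median log2 change of the 7 tested members was 0.18 with 6 libraries and 0.00 without control replicate 3, beside 0.10 and −0.02 over all genes tested. For 5 of the 8 genes (EGFR, ERBB2, ERBB3, TGFA and ERRFI1) control replicate 3 was nearer on the log2 scale to the mean of the Caba-780 libraries than to that of the other controls. The share of all genes for which this held is not given here. For AREG those means were nearly equal, and EREG had 0 reads in control replicate 3. The part that the composition of this library plays in those values was not tested. In RNA from whole cultures, fewer cells that express a gene and less of its RNA per cell cannot be told apart.

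**Figure D3:**
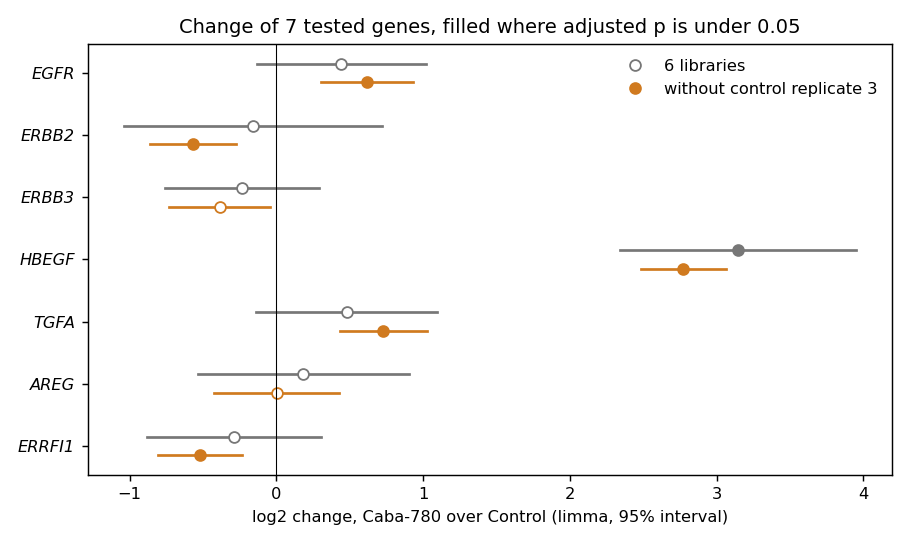
Log2 change, Caba-780 over Control, of the 7 tested genes with the 95% interval of limma, with 6 libraries (grey) and without control replicate 3 (orange), and filled points where the adjusted p is under 0.05. HBEGF is at 3.14 and 2.77, and the intervals of the other genes with 6 libraries cross 0.

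The genes with the most similar profile over the libraries were named for each member by Pearson r on the log2(value + 1) scale, among 9872 protein-coding genes with at least 100 normalized counts on average. The values are descriptions only, and those of EREG rest on 0 to 11 reads per library. HBEGF was most like SART3 (r = 0.998 over 6 libraries) and TUFT1 (0.998), and without control replicate 3 both also had r = 0.998. TGFA was most like TXLNG (r = 0.998) and DDAH1 (0.997). EGFR was most like RAPGEF2 (r = 0.997) and AKAP13 (0.995), ERBB2 most like FZR1 (0.999) and A4GALT (0.999), and ERBB3 most like PRTG (0.978) and MAGEE1 (0.970). AREG had its best matches in YPEL5 (r = 0.973) and UBE2A (0.969), EREG in APOBEC3G (0.993) and SAP18 (0.990), and ERRFI1 in MSRB3 (0.988) and TFAP2A (0.987). Without control replicate 3 the r of these 16 pairs was 0.939 to 0.999. The pairs were picked for the highest r among 9872 genes over all 6 libraries, including every library used for r without control replicate 3. High values are therefore built in by the choice.

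The rest of the pathway was read from 44 further genes, of which 42 were listed and 38 tested. With 6 libraries limma called 0 of the 38, with 7 at an unadjusted p under 0.05. Over all 13847 genes limma called 139, with 2352 under that p. Among the 38, edgeR and limma-voom also called 0, and DESeq2 called 5 (LRIG1 and LRIG2 higher, ADAM10, SOCS5 and RNF41 lower). DESeq2 called 1223 of all 13847 genes. When control replicate 3 was left out limma called 8 higher and 5 lower of the 38, or 13, beside 32.4% of all genes (17.2% higher and 15.2% lower). Scaled by library totals the 13 split into 10 higher and 3 lower, and 69.0% of the calls over all genes were then higher, against 53.2% with the deposited size factors. For the 38 pathway genes the median log2 change was 0.09 with 6 libraries and 0.02 without control replicate 3. Over all genes tested it was 0.10 and −0.02.

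Of 4 shedding genes tested, only ADAM10 was called without control replicate 3, beside 32.4% of all genes (17.2% higher and 15.2% lower). ADAM10, a sheddase of several EGF-type ligands, had 2714, 3360.5 and 2879.5 normalized counts with Caba-780, against 5575, 4888 and 6778 in controls. These groups did not overlap, beside 31.3% of all tested genes with 6 libraries (13.4% lower). The log2 change of ADAM10 was −0.94 ± 0.19 with 6 libraries (limma adjusted p = 0.0922) and −0.81 ± 0.14 without control replicate 3 (limma adjusted p = 5.29e-05). ADAM17, the main sheddase of HBEGF, TGFA and AREG, had 1086, 1288 and 1137 normalized counts with Caba-780, against 1034, 813 and 1710 in controls. It was not called with 6 libraries (0.05 ± 0.29, limma adjusted p = 0.941) or without control replicate 3 (0.35 ± 0.15, limma adjusted p = 0.0744). RHBDF1, which encodes the ADAM17 partner iRhom1, had 824, 673 and 778 normalized counts with Caba-780, against 735, 635 and 93.6 in controls, and control replicate 3 was the low value. Its log2 change was 1.10 ± 0.77 with 6 libraries (limma adjusted p = 0.508) and 0.14 ± 0.15 without control replicate 3 (limma adjusted p = 0.492).

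None of the 3 other ligand genes tested was called in either fit. Over all genes, 1.00% were called with 6 libraries and 32.4% without control replicate 3. NRG1, a neuregulin that binds ERBB3 and ERBB4, had 1003, 1327 and 1012 normalized counts with Caba-780, against 944, 874 and 1035 in controls. Its log2 change was 0.22 ± 0.19 with 6 libraries (limma adjusted p = 0.579) and 0.28 ± 0.15 without control replicate 3 (limma adjusted p = 0.158). NRG2 had 282 to 377 with Caba-780, against 318, 298 and 28.2 in controls, and its log2 change was 1.205 ± 0.92 with 6 libraries (limma adjusted p = 0.536) and 0.07 ± 0.17 without control replicate 3, the low value (limma adjusted p = 0.791). For BTC, not detected in control replicate 3, the change was 1.70 ± 1.49 with 6 libraries (limma adjusted p = 0.582) and −0.06 ± 0.38 without that library (limma adjusted p = 0.924). NRG4 had 4, 5 and 3 reads in the treated libraries and 0 in the controls, and EGF itself had at most 4 reads in any library.

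Among 14 genes of receptor down-regulation tested, 4 rose and 3 fell without control replicate 3, beside 17.2% of all genes higher and 15.2% lower. LRIG1, a membrane protein that restrains EGFR, had 92.3, 124 and 123 normalized counts with Caba-780, against 51.4, 46.3 and 32.7 in controls. Its relative LRIG2 had 341, 421 and 347 with Caba-780, against 187, 169 and 210 in controls. Neither pair of groups overlapped with 6 libraries, like 31.3% of all tested genes (17.9% higher), control replicate 3 included. Without that library LRIG1 rose by 1.18 ± 0.25 and LRIG2 by 1.05 ± 0.17 on the log2 scale (limma adjusted p = 6.66e-04 and 4.43e-05). With 6 libraries they missed the threshold, at 1.37 ± 0.30 for LRIG1 and 0.97 ± 0.20 for LRIG2 (limma adjusted p = 0.113 and 0.103). SOCS5, a suppressor of cytokine signalling that can promote EGFR degradation, had 573, 671 and 564 normalized counts with Caba-780, against 1019, 1099.9 and 2005 in controls. Its log2 change was −1.12 ± 0.29 with 6 libraries (limma adjusted p = 0.148) and −0.82 ± 0.15 without control replicate 3, the highest library (limma adjusted p = 1.22e-04). The others called in that fit, named after their values were seen, were LRIG3 (0.61) and the deubiquitinase gene USP8 (0.39), which were higher, and the endocytic adaptor EPN1 (−0.60) and the ubiquitin ligase RNF41 (−0.43), which were lower. With 6 libraries none of these passed, at 0.55 for LRIG3, 0.081 for USP8, −0.080 for EPN1 and −0.46 for RNF41.

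Of 10 receptor adaptors tested, 3 rose and none fell without control replicate 3, beside 17.2% of all genes higher and 15.2% lower. These were the exchange factor VAV2 (0.47 ± 0.15, limma adjusted p = 0.0147), the phosphatase SHP2 gene PTPN11 (0.35 ± 0.14, limma adjusted p = 0.0466) and the phospholipase PLCG1 (0.36 ± 0.14, limma adjusted p = 0.0481). With 6 libraries none of them passed, at 0.56 ± 0.19 for VAV2, 0.23 ± 0.18 for PTPN11 and 0.61 ± 0.25 for PLCG1 (limma adjusted p = 0.224, 0.555 and 0.297). In the PI3K arm, PIK3R1, the p85 regulatory subunit, rose by 0.67 ± 0.16 (limma adjusted p = 0.00257) and the kinase AKT2 fell by 0.45 ± 0.14 on the log2 scale (limma adjusted p = 0.0148) in the same fit, of 6 genes tested. With 6 libraries PIK3R1 was at 0.11 ± 0.47 and AKT2 at −0.22 ± 0.25 (limma adjusted p = 0.916 and 0.670). PIK3R1 had 417, 455 and 399.6 normalized counts with Caba-780, against 285, 248 and 857 in controls, so control replicate 3 was above every treated library. AKT2 had 1982, 1542 and 1861 with Caba-780, against 2506, 2388 and 1495 in controls, where control replicate 3 was the lowest of all. PDPK1, the kinase that activates AKT, was at 0.19 ± 0.17 with 6 libraries (limma adjusted p = 0.576) and 0.24 ± 0.15 without control replicate 3 (limma adjusted p = 0.209).

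**Figure D4:**
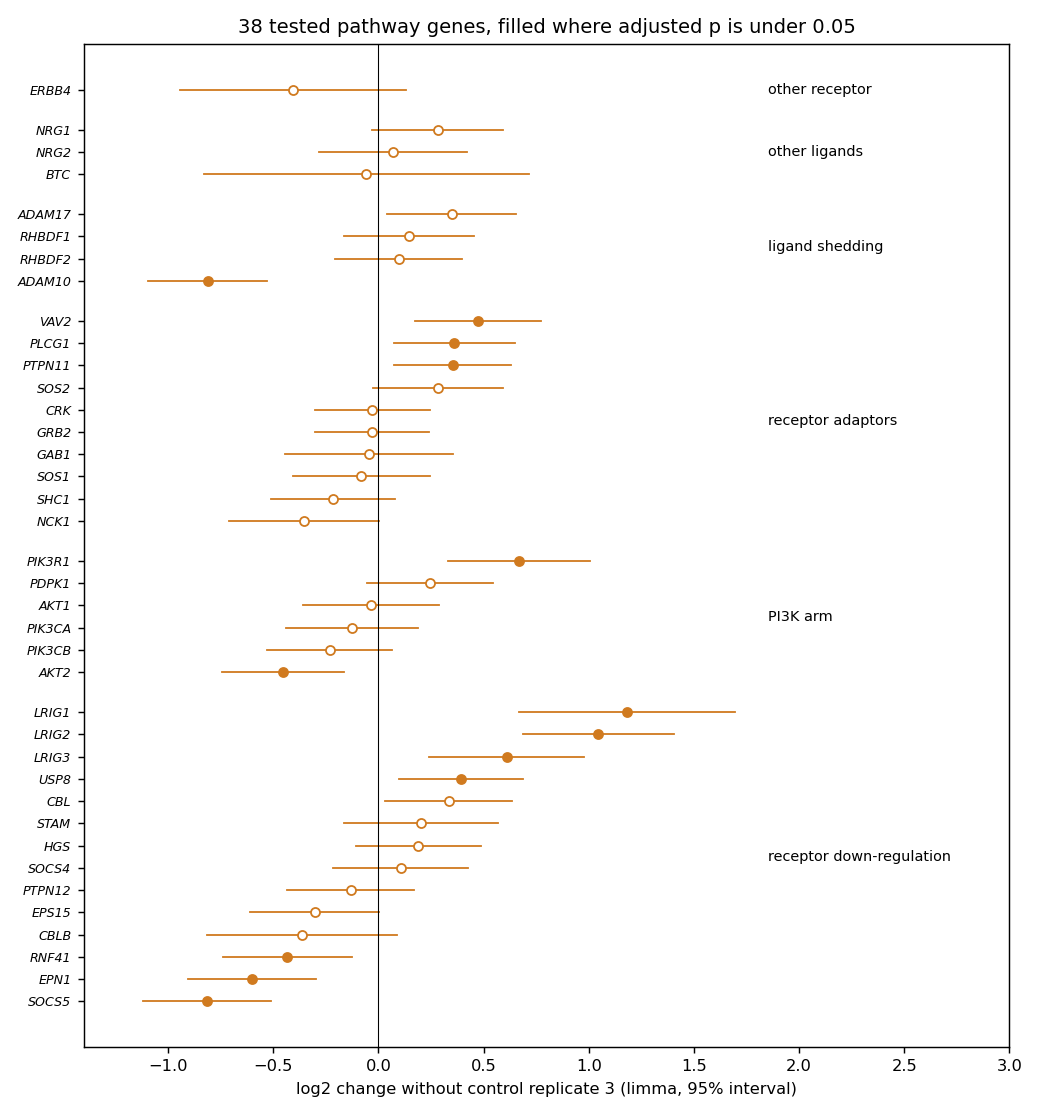
Log2 change, Caba-780 over Control without control replicate 3, of the 38 tested pathway genes with the 95% interval of limma, grouped by role. Filled points have an adjusted p under 0.05: 8 lie above 0 and 5 below, with LRIG1 the highest at 1.18 and SOCS5 the lowest at −0.82.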

How the data were processed

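RNA-seq libraries of T24 cells were compared as 3 Caba-780 against 3 control libraries, grouped by their titles. The tools named in the submitters' processing notes are featureCounts 1.5.0-p3, HISAT2 2.0.5, DESeq2 1.20.0 and fastp, with the build hg38, without settings. The deposited table holds a normalized signal, read counts divided by 1 size factor per library, and 100% of values gave whole reads at a tolerance of 1e-06. The authors' own comparison is deposited as a log2 fold change with a raw and an adjusted p-value, and the deposited gene length (unit other) is in bases. Start and end of the 8 genes equalled GENCODE v29 (GRCh38).

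Limma 3.58.1 (R 4.3.3, trend and robust options) was run on log2(value + 1) over all genes that reached 10 normalized counts in 3 or more libraries, two-sided, with Benjamini-Hochberg adjustment and a threshold of 0.05. The pseudocount shrinks the change of low genes. Alternatives were edgeR 4.0.16, DESeq2 1.42.0 and limma-voom on recovered reads, other scalings, filters and pseudocounts, and each library left out. Fits were tested on simulated counts with no library like control replicate 3, so that test does not cover its effect. The members, pathway lists and rules were chosen with earlier results of these data known. Named genes were all members, the genes of each pathway list called with 6 libraries, up to 3 per list with the lowest p without control replicate 3, and the 2 genes most correlated with each member. The untested ligand genes EGF, EPGN and NRG4, other called genes and overlapping genes were named outside that rule, after their values were seen. Libraries of a group differed beyond sampling noise (chi-square per degree of freedom 9.10 to 191), so none was counted as a duplicate.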

Additional observations from a re-analysis of the deposited data

How the results depend on the processing

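With 6 libraries, 139 genes, 1 member and 0 pathway genes were called by limma. DESeq2 called 1223 genes and 5 pathway genes, and still 1 member. Leaving out 1 library gave 0 to 4436 genes, 0 to 5 members and 0 to 13 pathway genes, with the highest counts without control replicate 3 and at most 1 gene called without any other library (1092 to 2388 genes had an unadjusted p under 0.05 there). Without control replicate 3, 4436 genes, 5 members and 13 pathway genes were called, and leaving out a further library gave 2300 to 4267 genes, 4 to 6 members and 6 to 14 pathway genes, lowest for all genes and pathway genes without control replicate 2. Fits that leave 1 control assume that it varies like the other libraries.

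Deviations from the group mean correlated at 0.303, −0.334 and −0.101 in same-numbered libraries, and at −0.302 to 0.335 in differently numbered ones. Deviations within a group sum to 0, so these values cannot show or exclude pairing by replicate number. With the replicate number as a block, 0 genes and 0 members were called with 6 libraries (1563 at an unadjusted p under 0.05). Without control replicate 3 the block fit called 3891 genes and 4 members, and not ERRFI1 (limma adjusted p = 0.0648). Caba-780 replicate 3 then has no control of its number. Those log2 changes therefore rest on replicates 1 and 2 of each group, with little spread per gene left to test against.

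With 6 libraries and 1 left out in turn, the log2 change of ERBB2 was −0.57 to 0.10, positive without control replicate 1. AREG, without control replicate 3, turned to −0.034 with edgeR, −0.038 with DESeq2 and −0.09 without Caba-780 replicate 2, and was −0.38 to 0.39 over the libraries left out in turn, lowest without control replicate 1. Library totals moved the median log2 change of all genes from 0.10 to 0.23 with 6 libraries and from −0.02 to 0.08 without control replicate 3, where 69.0% of calls were then higher, against 53.2% with the deposited size factors. The HBEGF log2 change was 3.05 to 3.27 over the settings that used all 6 libraries. With 1 library left out in turn it reached 2.77 without control replicate 3 and 3.38 without control replicate 1. Over the settings that started without control replicate 3 it was 2.68 to 2.87. Over the libraries left out in turn, the difference in share, Caba-780 minus control, was 4.89 to 17.1 percentage points for EGFR, −15.3 to −3.48 for ERBB2, 38.1 to 48.9 for HBEGF and −32.5 to −17.3 for TGFA. The causes of these shifts were not tested.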
